A study of Mus musculus with 4 samples.

Results

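Effector differentiation transcription factors are the 9 genes *Batf*, *Irf4*, *Prdm1*, *Maf*, *Id2*, *Id3*, *Bhlhe40*, *Tox* and *Hif1a*, whose rows were read by symbol from the count tables of sorted hepatic CD4 T cells. The tables count UMIs, the molecular tags that mark single captured transcripts at their 5′ ends. All 9 were found among the 32285 genes, and all 9 had at least 10 UMIs, the minimum used, in every comparison for which factors are counted below. The cells came from the livers of male mice fed CD, the choline-deficient diet with 60 kcal% fat and 0.1% methionine that induces metabolic dysfunction–associated steatohepatitis (MASH), and from both genotypes on the same diet. WT mice were compared with dKO mice, which carry floxed alleles of *Nr4a1* and *Nr4a2* (*Nr4a1* fl/fl *Nr4a2* fl/fl) and *Cd4-Cre*, a Cre transgene active in cells of the T lineage. RNA of each genotype was measured in 1 droplet library pooled from 2 mice, with a matching library of T cell receptors, and the cells of single mice could not be told apart. With 1 library per genotype no test between the genotypes was run. All intervals in parentheses are 95% intervals that cover counting error only, and the genotype cannot be told apart from the library.

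T cells leave the resting state under the control of a small network of DNA-binding proteins. *Batf* encodes an AP-1 family protein that binds DNA together with the protein of *Irf4*, and both are induced by antigen receptor signals. *Prdm1* encodes Blimp-1 and *Maf* encodes c-Maf, which are known as factors of effector T cells and regulators of *Il10*. *Id2* and *Id3* encode inhibitors that bind E proteins and keep them off DNA, *Id2* being the form of effector cells and *Id3* the form of naive and memory cells. *Bhlhe40* encodes a repressor induced by activation, *Tox* an HMG-box protein linked to chronic stimulation, and *Hif1a* the regulated subunit of the hypoxia-inducible factor. The nuclear receptors encoded by *Nr4a1*, *Nr4a2* and *Nr4a3* are themselves induced by antigen receptor signals.

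After the filter on genes and mitochondrial counts, 10556 cells with 23437516 UMIs remained in the WT-labelled library and 17462 cells with 37794986 UMIs in the dKO-labelled library. Median depth was 1679 and 1685 UMIs per cell, and 245 barcodes occurred in both libraries. The genes that define the genotype went against the labels. Levels are given as UMIs of a gene per 1000000 UMIs of its cell class (CPM). In Foxp3+ T cells, gated as described in the next paragraph, *Nr4a1* had 1082 CPM (1021 to 1146) in the WT-labelled library and 2324 CPM (2286 to 2362) in the dKO-labelled library, and *Nr4a2* had 182 CPM (157 to 209) and 444 CPM (428 to 461). The counts do not say which exon a UMI came from, so transcripts of a floxed allele that lost some exons would still be counted. *Nr4a1* was also higher in plasmacytoid dendritic cells of the dKO-labelled library, with 605 and 1279 CPM. Whether the labels were exchanged cannot be told from the counts. Groups are therefore called by the label of their library, and in pairs of values joined by "and" the WT-labelled library comes first. Log2 ratios between libraries are dKO-labelled over WT-labelled.

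Cells were put into classes by UMIs of marker genes, none of which is one of the 9 factors. A T cell had a UMI of *Cd3e*, *Cd3d* or *Cd3g*, and a Foxp3+ T cell had in addition at least 1 UMI of *Foxp3*, the defining factor of regulatory T cells (Tregs). There were 430 Foxp3+ T cells in the WT-labelled library and 3197 in the dKO-labelled library, or 4.07% and 18.3% of the cells kept, beside 73 and 203 that also carried cycling genes. Other T cells numbered 6210 and 4380, and consisted of type 1 cells with *Ifng* (1491 and 746), type 17 cells (187 and 331), naive-type cells with at least 2 of 5 genes of resting cells (1371 and 760) and the remaining conventional cells (3161 and 2543). A further 503 and 4036 cells without a *Foxp3* UMI met none of these gates, carried at least 3 of 7 Treg-associated genes and were kept apart, since droplet counts miss many transcripts. Orders of classes are given over the 11 classes that held at least 50 cells in each library. The sort labelled as CD4 T cells also held 1325 and 3280 plasmacytoid dendritic cells and 137 and 226 macrophages and monocytes. In Foxp3+ T cells 6 and 7 of 8 macrophage markers had a UMI and summed to 64.9 and 89.7 CPM, with *Clec4f* at 0 in both libraries, against 18890 and 19543 CPM in the macrophage class, and the 6 plasmacytoid markers, all detected, summed to 17.4 and 74.8 CPM. Markers of neutrophils (2 genes) differed more, with 18.3 and 240 CPM in Foxp3+ T cells and 6.46 and 448 CPM in other T cells. *Cd4* itself had 217 and 938 CPM in Foxp3+ T cells, and *Cd8a* was at 0 in both. The part of these transcripts in the results was not tested.

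In Foxp3+ T cells, 5 of the 9 factors were at least 1.5-fold higher in the dKO-labelled library and 1 was at least 1.5-fold lower. *Id2*, *Maf*, *Prdm1*, *Batf* and *Bhlhe40* were the higher ones and *Id3* the lower one, whereas *Irf4*, *Tox* and *Hif1a* lay between. The limit is 0.58 on the log2 scale. *Batf* at 0.47 with the mean of each cell's CPM, and *Bhlhe40* at 0.35 with Treg-associated cells counted as Foxp3+, fell under it. *Batf* was also less than 1.5-fold higher with naive-type cells left out, at 165 and 234 CPM. Over all 11673 genes with at least 10 UMIs in this comparison, 16.4% were as much higher and 15.3% as much lower. The median log2 ratio, dKO over WT, was 0.62 over the 9 factors and 0.00 over all these genes.

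*Batf* (ENSMUSG00000034266, chr12:85686669-85709087) had 139 CPM (118 to 163) in Foxp3+ T cells of the WT-labelled library and 231 CPM (219 to 244) in those of the dKO-labelled library. The log2 ratio was 0.74 (0.49 to 0.99). The higher level was not limited to Foxp3+ T cells, because other T cells had 91.3 CPM (86.0 to 96.8) and 183 CPM (173 to 194), a log2 ratio of 1.01 (0.89 to 1.12). Among type 1 T cells *Batf* had 104 and 258 CPM, a log2 ratio of 1.31 (1.09 to 1.53), and the ratio in Foxp3+ T cells was smaller than this by 0.58 on the log2 scale (−0.90 to −0.25). In type 1 T cells without a Treg-associated gene the ratio was 0.67 (0.02 to 1.29), not above that of Foxp3+ T cells. Naive-type T cells had 76.8 and 126 CPM. Plasmacytoid dendritic cells gave 69.7 and 68.0 CPM, a log2 ratio of −0.04 (−0.26 to 0.20). The ratio in Foxp3+ T cells exceeded it by 0.77 (0.44 to 1.10). Macrophages and monocytes were higher in the dKO-labelled library, with 15.2 CPM (4.94 to 35.5) and 51.7 CPM (36.7 to 70.6), from 5 and 39 UMIs. The order of the classes also differed between libraries. Foxp3+ cycling T cells (162 CPM) and Foxp3+ T cells stood highest in the WT-labelled library, and each class overlapped the next down to plasmacytoid dendritic cells. In the dKO-labelled library the order was type 1, cycling T cells without *Foxp3* (236 CPM), Foxp3+, Foxp3+ cycling (230 CPM) and Treg-associated T cells (211 CPM), neighbours that counting error did not separate. Type 17 T cells had 175 CPM (144 to 210). After each cell was thinned to 1000 UMIs, at least 1 *Batf* UMI was seen in 15.2% (11.7 to 19.2) of 375 and 18.6% (17.1 to 20.2) of 2611 Foxp3+ T cells, with intervals that overlapped. Thinned to 2000 UMIs, the shares were 22.1% (16.8 to 28.2) of 217 and 32.2% (29.5 to 35.1) of 1102 cells, and these intervals did not overlap. Thinning to 1000 UMIs left out 55 and 586 shallower cells, and the unthinned shares were 25.8% (21.7 to 30.2) and 28.9% (27.4 to 30.5). In other T cells the thinned shares were 8.88% (8.12 to 9.68) and 14.4% (13.2 to 15.6), against 6.0% and 6.18% in plasmacytoid dendritic cells.

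*Irf4* (ENSMUSG00000021356, chr13:30749226-30766976), whose protein binds composite sites with Batf, differed less between the libraries. Foxp3+ T cells had 56.7 CPM (43.4 to 72.6) and 48.6 CPM (43.2 to 54.5), a log2 ratio of −0.22 (−0.62 to 0.20). Other T cells had 45.6 CPM (42.0 to 49.6) and 45.3 CPM (40.3 to 50.7), a log2 ratio of −0.01 (−0.22 to 0.19). Both intervals span 0, but with 1 cell per clonotype the ratio in other T cells was 0.68. That setting keeps only cells with a recovered receptor. The Treg-associated cells without *Foxp3* had 72.7 and 40.0 CPM, a log2 ratio of −0.86 (−1.24 to −0.47). By contrast, plasmacytoid dendritic cells, which depend on factors of the IRF family themselves, were the highest class for *Irf4* in the WT-labelled library at 79.0 CPM and had 45.5 CPM in the dKO-labelled library, a log2 ratio of −0.80 (−1.03 to −0.56). In the WT-labelled library their interval overlapped those of Treg-associated and type 1 T cells (66.8 CPM). These dendritic cells held 18.0% of all *Irf4* UMIs in the WT-labelled library and 27.7% in the dKO-labelled library.

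*Prdm1* (ENSMUSG00000038151, chr10:44437177-44528501) had 52.1 CPM (39.5 to 67.5) in Foxp3+ T cells of the WT-labelled library, from 57 UMIs, and 88.5 CPM (81.2 to 96.3) in those of the dKO-labelled library, a log2 ratio of 0.76 (0.37 to 1.18). The level in other T cells was 25.3 and 46.3 CPM, a log2 ratio of 0.87 (0.64 to 1.11). Treg-associated cells without *Foxp3* had 38.7 and 91.2 CPM, a log2 ratio of 1.24 (0.78 to 1.73). Of the 6 factors with an entry in the RefSeq table of promoters on GRCm38.p6, *Prdm1* was the one with an AP-1 motif (TGANTCA, either strand) in the 250 bases before its start, and this stretch is shown because Batf is an AP-1 protein. The match lies 48 bases before the start, at chr10:44458779-44458807 on the minus strand, with the motif in capitals. This RefSeq start lies inside the span of the gene given above.
Prdm1 upstream: gctggtaggagTGAATCAgaccgtcagta
Of 32851 upstream windows of that length, 6.75% hold this motif. The Nr4a motif NBRE (AAAGGTCA, either strand), found in 1.34% of windows, was not found in the windows of *Batf*, *Irf4*, *Prdm1*, *Id2*, *Id3* or *Hif1a*. The other motifs searched on both strands were CRE (TGACGTCA, 1.55%) and the IRF repeat (GAAA, any 2 bases, GAAA, 2.98%), without a match in these 6 windows, and those given with *Hif1a* below. *Maf*, *Bhlhe40* and *Tox* were not in the table.

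*Maf* (ENSMUSG00000055435, chr8:115682942-115707794) had 278 CPM (248 to 311) and 533 CPM (515 to 552) in Foxp3+ T cells, a log2 ratio of 0.94 (0.77 to 1.12). Other T cells had 170 CPM (163 to 178) and 304 CPM (290 to 317), a log2 ratio of 0.84 (0.75 to 0.92). Plasmacytoid dendritic cells were the lowest class for *Maf*, with 11.4 and 11.1 CPM, and macrophages had 85.2 and 84.8 CPM. Type 17 T cells were the highest class in the WT-labelled library, at 323 CPM, where their interval overlapped that of Foxp3+ T cells. In the dKO-labelled library, Treg-associated cells without *Foxp3* (552 CPM) and Foxp3+ T cells overlapped each other and stood clear of type 17 T cells at 366 CPM. The thinned share of Foxp3+ T cells with a *Maf* UMI was 21.3% (17.3 to 25.8) and 39.3% (37.4 to 41.2), beside 1.34% and 0.887% in plasmacytoid dendritic cells. Unthinned, it was 39.1% (34.4 to 43.9) and 52.8% (51.0 to 54.5).

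The Id pair moved in opposite directions in Foxp3+ T cells. *Id2* (ENSMUSG00000020644, chr12:25093799-25097140) had 349 CPM (315 to 386) in the WT-labelled library and 808 CPM (785 to 830) in the dKO-labelled library, a log2 ratio of 1.21 (1.06 to 1.36). *Id3* (ENSMUSG00000007872, chr4:136143497-136145755) had 28.3 CPM (19.3 to 40.2), from 31 UMIs, and 9.56 CPM (7.26 to 12.4), from 58 UMIs, a log2 ratio of −1.57 (−2.22 to −0.89). Neither pair of intervals overlapped. Both shifts were larger in Foxp3+ T cells than in other T cells. Other T cells had 285 and 370 CPM of *Id2*, a log2 ratio of 0.37 (0.30 to 0.45), and the difference between the ratios was 0.84 (0.67 to 1.0). For *Id3* they had 39.1 and 32.2 CPM, a log2 ratio of −0.28 (−0.52 to −0.04), and the difference was −1.29 (−1.96 to −0.62). Treg-associated cells without *Foxp3* were near Foxp3+ T cells in both shifts, with 317 and 771 CPM of *Id2* (1.28, 1.12 to 1.45) and 31.1 and 11.4 CPM of *Id3* (−1.45, −2.07 to −0.81). Counted as other T cells, they moved the ratios of that group to 0.96 and −0.78. In the WT-labelled library, Foxp3+ T cells were near type 1 T cells for *Id2* (349 and 352 CPM), while in the dKO-labelled library they stood highest, overlapping with Treg-associated T cells (771 CPM), and type 1 T cells had 493 CPM. After thinning, Foxp3+ T cells with an *Id2* UMI made up 23.2% (19.0 to 27.8) and 48.1% (46.2 to 50.1), beside 3.41% and 1.53% of plasmacytoid dendritic cells. Those with an *Id3* UMI made up 3.73% (2.06 to 6.18) and 0.919% (0.590 to 1.36). Unthinned, the shares were 39.8% and 61.9% for *Id2* and 6.28% and 1.31% for *Id3*. Macrophages were the highest class for *Id3*, with 551 and 294 CPM, and plasmacytoid dendritic cells had 95.6 and 64.3 CPM. Naive-type T cells had 58.8 and 50.5 CPM, the most of the T cell classes apart from the 52 cells with an invariant NKT receptor in the dKO-labelled library (89.2 CPM). *Id3* was also lower in the dKO-labelled library in macrophages, by a log2 ratio of −0.91 (−1.20 to −0.61), and in plasmacytoid dendritic cells, by −0.57 (−0.78 to −0.36).

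*Bhlhe40* (ENSMUSG00000030103, chr6:108660629-108666925) had 579 CPM (535 to 626) and 889 CPM (865 to 913) in Foxp3+ T cells, a log2 ratio of 0.62 (0.50 to 0.74). In other T cells it had 723 and 905 CPM, a log2 ratio of 0.32 (0.28 to 0.37). Outside T cells, macrophages had 234 and 270 CPM, a log2 ratio of 0.21 (−0.18 to 0.60), and plasmacytoid dendritic cells had 154 and 252 CPM, a log2 ratio of 0.71 (0.56 to 0.86), and the ratios of Foxp3+ T cells and plasmacytoid dendritic cells differed by −0.09 (−0.28 to 0.09). Cycling T cells without *Foxp3* went the other way, with 641 and 483 CPM. Type 1 T cells were the highest class in both libraries, at 1004 and 1214 CPM, and overlapped type 17 T cells (976 CPM) in the WT-labelled library.

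*Tox* (ENSMUSG00000041272, chr4:6686353-6991557) was highest in Foxp3+ T cells of the WT-labelled library and differed little between the libraries there, with 612 CPM (567 to 661) and 565 CPM (546 to 584), a log2 ratio of −0.12 (−0.24 to 0.01). Other T cells had 213 CPM (205 to 221) and 322 CPM (309 to 336), a log2 ratio of 0.60 (0.52 to 0.68), so the ratio in Foxp3+ T cells was lower by 0.72 (−0.86 to −0.57 as a difference). That gap depends on the cells compared, since the ratio in other T cells was 0.11 with 1 cell per clonotype and −0.06 (−0.27 to 0.15) in those without a Treg-associated gene. Taking 1 cell per clonotype also leaves out the cells without a recovered receptor. Type 1 T cells had 213 and 420 CPM. The gap between all type 1 and Foxp3+ T cells was smaller in the dKO-labelled library, with log2 ratios of Foxp3+ over type 1 T cells of 1.52 (1.37 to 1.67) and 0.43 (0.29 to 0.56). Type 1 T cells without a Treg-associated gene had 134 and 153 CPM, far below Foxp3+ T cells in both libraries. Treg-associated T cells of the dKO-labelled library (588 CPM) overlapped Foxp3+ T cells.

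*Hif1a* (ENSMUSG00000021109, chr12:73901375-73947530) had 429 CPM (391 to 469) and 493 CPM (475 to 511) in Foxp3+ T cells, a log2 ratio of 0.20 (0.06 to 0.35). The values in other T cells were 302 and 462 CPM, a log2 ratio of 0.61 (0.54 to 0.68), with 0.78 (0.62 to 0.95) in naive-type and 0.70 (0.41 to 0.99) in type 17 T cells. Type 17 T cells, in which Hif1a is known to work with RORγt, were the highest class in the dKO-labelled library at 520 CPM, and overlapped type 1 T cells (503 CPM), the next class. Its window upstream of the RefSeq start holds an E-box (CACGTG), 135 bases before the start, which contains the hypoxia core (ACGTG), and another hypoxia core 70 bases before it. This start, too, lies inside the span of the gene. These are shown because the Bhlhe40 protein binds E-boxes and the Hif1a dimer binds the core.
Hif1a upstream E-box, chr12:73907721-73907748, plus strand: acacagacaagCACGTGagcggggcagc
Hif1a upstream core, chr12:73907786-73907812, plus strand: ggctgagagcaACGTGggctggggtgg
The E-box is held by 6.02% and the core by 16.6% of all windows, on either strand. A match is a stretch of letters, and no binding was measured here.

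**Figure D1:**
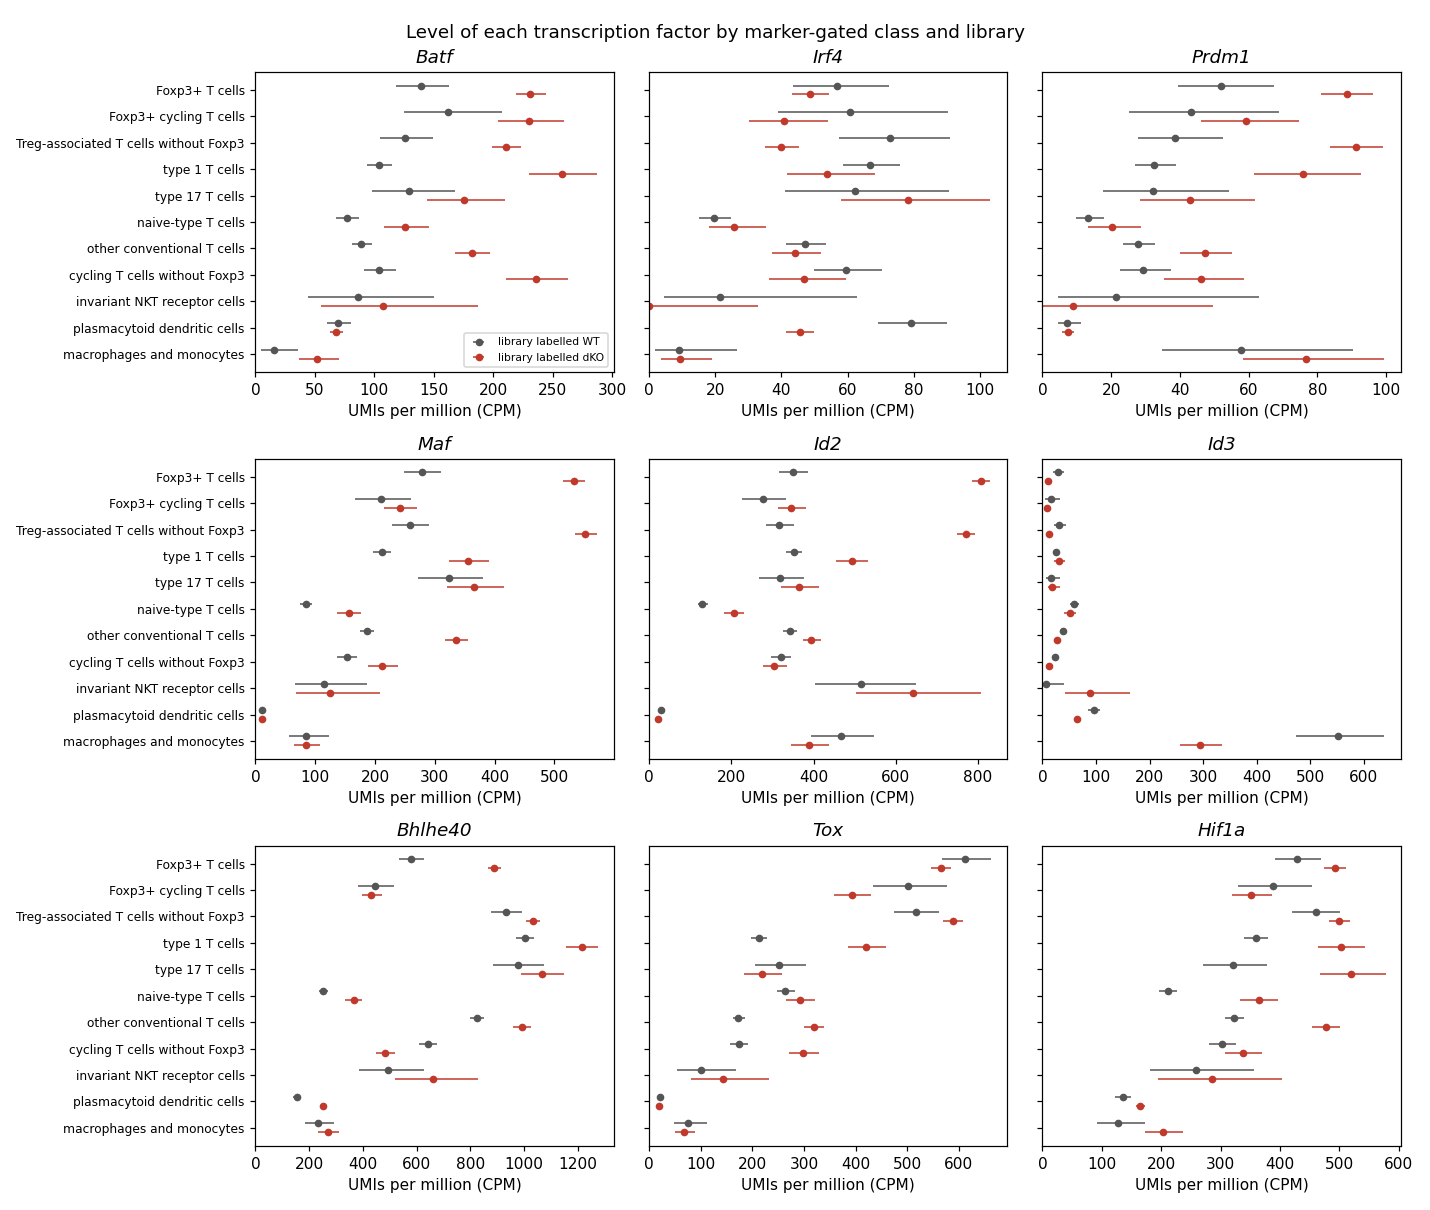
Level of each of the 9 factors in CPM (x axis, scale differs by panel) in 11 marker-gated classes, in grey for the WT-labelled library and red for the dKO-labelled library; bars are exact 95% Poisson intervals. *Id2* in Foxp3+ T cells was 349 CPM in the WT-labelled library and 808 CPM in the dKO-labelled library, and *Id3* was highest in macrophages in both.

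**Figure D2:**
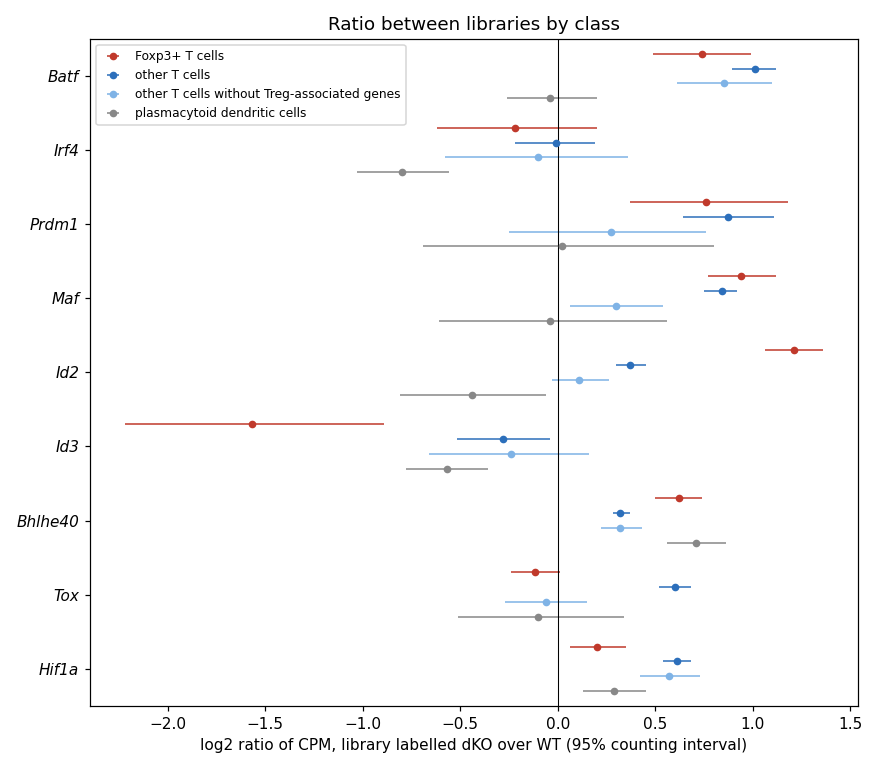
Log2 ratio of CPM, dKO-labelled over WT-labelled library (x axis), for each factor in Foxp3+ T cells, other T cells, other T cells with no Treg-associated gene and plasmacytoid dendritic cells; bars are exact 95% intervals for counting error. *Batf* lay above 0 in the 3 T cell groups and at −0.04 in plasmacytoid dendritic cells, and *Id3* reached −1.57 in Foxp3+ T cells.

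Over all other T cells, 5 factors (*Batf*, *Prdm1*, *Maf*, *Tox* and *Hif1a*) were at least 1.5-fold higher in the dKO-labelled library and 0 were as much lower, beside 8.98% and 13.3% of 13384 genes. With 1 cell per clonotype *Tox* was below the limit at 0.11, as it was at 0.55 without predicted doublets, and *Irf4* (0.68) and *Bhlhe40* (0.69) were above it. Treg-associated genes were higher in the same cells. The 7 genes summed to 753 CPM in other T cells of the WT-labelled library and 1991 CPM in those of the dKO-labelled library, and *Ikzf2*, which encodes Helios, had 91.7 and 245 CPM. The comparison was therefore repeated in the 2903 and 1210 other T cells without a UMI of any of the 7 genes, a choice made after these values were seen. There 1 factor, *Batf*, remained at least 1.5-fold higher and 0 were lower, beside 6.84% and 15.2% of 11366 genes. *Batf* had 76.0 and 137 CPM, a log2 ratio of 0.85 (0.61 to 1.10). *Hif1a* had 218 and 324 CPM, a log2 ratio of 0.57 (0.42 to 0.73), just under the 1.5-fold limit of 0.58, and *Bhlhe40* stayed at 0.32 (0.22 to 0.43). The ratios of the others were smaller than over all other T cells. *Maf* had 101 and 125 CPM (0.30, 0.06 to 0.54), *Prdm1* 24.2 and 29.1 CPM (0.27, −0.25 to 0.76) and *Tox* 156 and 150 CPM (−0.06, −0.27 to 0.15). *Id2* had 283 and 306 CPM (0.11, −0.03 to 0.26). The cells without a Treg-associated gene also had more *Ccr7*, one of the naive-type gate genes. It had 347 and 419 CPM there, against 259 and 246 CPM over all other T cells. The part of this shift in the smaller ratios was not tested.

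In type 1 T cells, 4 factors (*Batf*, *Prdm1*, *Maf* and *Tox*) were at least 1.5-fold higher in the dKO-labelled library and 0 lower, beside 9.85% and 18.2% of 11012 genes. Among the 540 and 151 type 1 T cells without a Treg-associated gene, *Batf* had 89.7 and 143 CPM, a log2 ratio of 0.67 (0.02 to 1.29). *Prdm1* had 32.0 and 57.2 CPM (0.84, −0.26 to 1.84). *Tox* had 134 and 153 CPM there (0.19, −0.42 to 0.75) and *Maf* 159 and 138 CPM (−0.20, −0.83 to 0.38). For *Prdm1*, *Tox* and *Maf* these intervals span 0, and few cells carry them.

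Plasmacytoid dendritic cells had 1 factor at least 1.5-fold higher, *Bhlhe40*, and 1 as much lower, *Irf4*, beside 9.09% and 12.6% of 12134 genes. *Prdm1* had 7.25 and 7.37 CPM and *Id2* 28.6 and 21.1 CPM in this class.

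Within the WT-labelled library, Foxp3+ T cells had 4 factors at least 1.5-fold above other T cells and 0 below, beside 15.2% and 15.5% of 12770 genes. *Tox* stood first, with 612 against 213 CPM, a log2 ratio of 1.53 (1.40 to 1.65). *Prdm1* followed at 1.04 (0.61 to 1.45), *Maf* at 0.71 (0.53 to 0.88) and *Batf* at 0.61 (0.35 to 0.85). *Hif1a* was higher by 0.50 (0.36 to 0.64) and *Id2* by 0.29 (0.13 to 0.44). *Bhlhe40* had 579 against 723 CPM, a log2 ratio of −0.32, whose sign turned with 1 cell per clonotype (0.07), with Treg-associated cells counted as Foxp3+ (0.06) and against other T cells without a Treg-associated gene (0.19). The ratio of *Batf* was 0.50 with TMM scaling, 0.53 without ribosomal, mitochondrial and receptor genes and 0.54 or 0.56 with Treg-associated cells counted as Foxp3+ or as other T cells, each under the limit. Within the dKO-labelled library, 4 factors were at least 1.5-fold above other T cells and 1 was below, beside 16.1% and 11.6% of 12671 genes. There *Id2* stood first, with 808 against 370 CPM, a log2 ratio of 1.13 (1.06 to 1.20), then *Prdm1* at 0.93 (0.73 to 1.14), *Maf* at 0.81 (0.73 to 0.89) and *Tox* at 0.81 (0.73 to 0.89). *Batf* was higher by only 0.34 (0.22 to 0.45), and *Hif1a* (0.09, 0.02 to 0.17) and *Bhlhe40* (−0.03, −0.08 to 0.03) were near the level of other T cells. *Id3* was lower, with 9.56 against 32.2 CPM, a log2 ratio of −1.75 (−2.20 to −1.33). The 4 higher calls in the dKO-labelled library rest on keeping the Treg-associated cells apart. With those cells counted as other T cells, *Id2* fell to 0.53, *Prdm1* to 0.39, *Maf* to 0.34 and *Tox* to 0.33, all under the limit, and *Id3* was at −1.23. Against other T cells without a Treg-associated gene, the order was *Maf* (2.10), *Tox* (1.91), *Prdm1* (1.61) and *Id2* (1.40), and *Batf* (0.75), *Irf4* (0.63) and *Hif1a* (0.61) were also above the limit. *Prdm1* came first at 1.42 with 1 cell per clonotype.

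Most of the factors were higher in type 1 than in naive-type T cells. Type 1 over naive-type T cells had 6 factors at least 1.5-fold higher and 1 lower in the WT-labelled library, beside 20.2% and 9.58% of 11527 genes. *Bhlhe40* had 1004 against 253 CPM (log2 ratio 1.99, 1.88 to 2.10), *Irf4* 66.8 against 19.5 CPM (1.78, 1.38 to 2.19) and *Id2* 352 against 130 CPM (1.43, 1.27 to 1.59). *Id3* was the lower one, with 25.0 against 58.8 CPM (−1.23, −1.61 to −0.87). For the dKO-labelled library the counts were again 6 higher and 1 lower, beside 18.9% and 11.2% of 9804 genes. *Prdm1* led with 75.9 against 20.1 CPM (1.92, 1.31 to 2.57), and *Id3* was lower with 30.8 against 50.5 CPM (−0.71, −1.31 to −0.13). *Tox* was below the naive-type level in type 1 T cells of the WT-labelled library (213 against 264 CPM) and above it in the dKO-labelled library (420 against 292 CPM), though not in its type 1 T cells without a Treg-associated gene (153 CPM). In those cells *Batf* had 143 CPM (96.5 to 204) against 126 CPM (108 to 146) in naive-type T cells, with intervals that overlap. *Maf* was below the naive-type level there, with 138 against 156 CPM. *Irf4* (57.2 against 25.6 CPM), *Prdm1* (57.2 against 20.1 CPM) and *Id2* (477 against 206 CPM) were still higher. The naive-type T cells were not limited to those without a Treg-associated gene, and had 527 CPM of *Ctla4*, one of these genes. Type 1 and naive-type T cells limited alike were not compared. Over all type 1 T cells *Hif1a* was higher by 0.77 (0.63 to 0.90) and 0.47 (0.30 to 0.64).

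Type 17 T cells, which make IL-17 and for which Batf and Irf4 are known to be needed, were set against type 1 T cells. Within the dKO-labelled library 0 factors were at least 1.5-fold higher and 3 were lower, beside 12.9% and 19.8% of 9244 genes. *Tox* had 219 against 420 CPM (−0.94, −1.22 to −0.67), *Prdm1* 42.9 against 75.9 CPM (−0.82, −1.49 to −0.20) and *Id3* 18.4 against 30.8 CPM, with an interval that spans 0 (−0.75, −1.82 to 0.22). *Batf* had 175 against 258 CPM (−0.56, −0.88 to −0.25), and *Irf4* 78.1 against 53.7 CPM (0.54, −0.01 to 1.08). In the WT-labelled library, *Maf* was the factor with the clearest difference, 323 against 212 CPM (0.61, 0.34 to 0.87). *Batf* had 129 against 104 CPM there (0.32, −0.12 to 0.72), with an interval that spans 0. In the dKO-labelled library, type 1 T cells without a Treg-associated gene had 143 CPM of *Batf* (96.5 to 204) and 153 CPM of *Tox* (104 to 215), so the order of the values turned for both genes, with intervals that overlap those of type 17 T cells. The type 17 T cells were not limited in this way and had 1258 CPM of *Ctla4*, a Treg-associated gene. Cells limited alike on both sides were not compared.

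**Figure D3:**
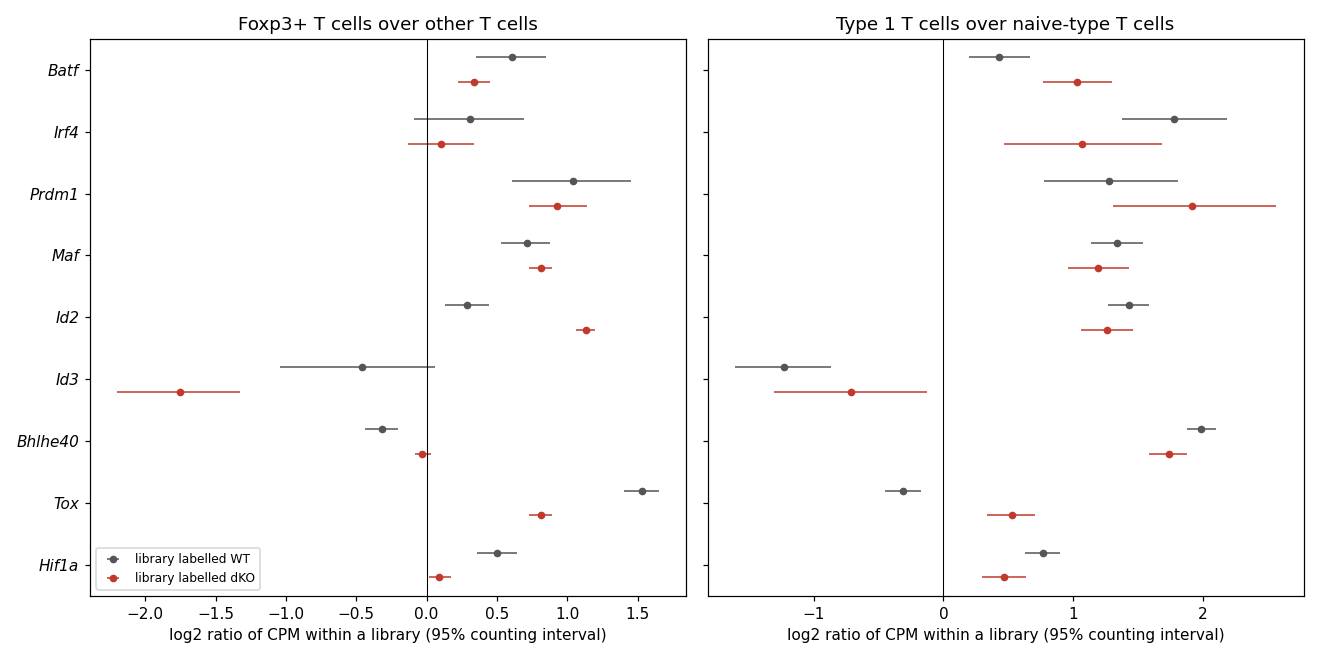
Log2 ratio of CPM within each library (x axis) for Foxp3+ over other T cells (left) and type 1 over naive-type T cells (right), in grey for the WT-labelled library and red for the dKO-labelled library; bars are exact 95% intervals for counting error. *Tox* led in Foxp3+ T cells of the WT-labelled library at 1.53 and *Id2* in the dKO-labelled library at 1.13 (0.53 with Treg-associated cells counted as other T cells), and *Id3* lay below 0 in both libraries on the right.

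Foxp3+ T cells of the dKO-labelled library were further divided by a UMI of *Il10*, of *Il1rl1* (which encodes the IL-33 receptor ST2) or of *Klrg1*, an effector marker, and by at least 2 naive-type genes. *Maf* and *Prdm1* were higher in the 664 cells with *Il10* than in the 2533 without, with 656 against 494 CPM (log2 ratio 0.41, 0.30 to 0.52) and 112 against 80.9 CPM (0.47, 0.20 to 0.74). In the 31 cells with *Il10* of the WT-labelled library the intervals were wide for *Maf* (0.31, −0.31 to 0.87) and *Prdm1* (−0.12, −2.05 to 1.32). *Batf* in the dKO-labelled library had 239 against 229 CPM (0.06, −0.12 to 0.23). Here 0 of the 9 factors were at least 1.5-fold higher and 0 lower, beside 6.73% and 8.98% of 11299 genes. The 313 cells with *Il1rl1* had the opposite pattern. *Prdm1* had 50.5 against 94.2 CPM (−0.90, −1.40 to −0.43) and *Maf* 365 against 559 CPM (−0.61, −0.79 to −0.44), the 2 factors at least 1.5-fold lower, beside 17.8% of genes, and 0 were as much higher, beside 8.95%. *Batf* had 303 against 221 CPM (0.46, 0.25 to 0.66), *Tox* 734 against 540 CPM (0.44, 0.31 to 0.57) and *Bhlhe40* 1128 against 853 CPM (0.40, 0.30 to 0.51). In the WT-labelled library, 102 cells had *Il1rl1*, and there *Maf* had 276 against 279 CPM (−0.02, −0.39 to 0.35) and *Prdm1* 67.4 against 45.6 CPM (0.56, −0.28 to 1.37). Between libraries, cells with *Il1rl1* had 156 and 303 CPM of *Batf* (0.96, 0.52 to 1.42) and 570 and 1128 CPM of *Bhlhe40* (0.99, 0.76 to 1.22), but 67.4 and 50.5 CPM of *Prdm1* (−0.42, −1.20 to 0.41). For *Prdm1* the cells without *Il1rl1* carried the difference, with 45.6 and 94.2 CPM (1.05, 0.55 to 1.59). The 1327 cells with *Klrg1* had more *Maf*, 605 against 472 CPM (0.36, 0.26 to 0.46), whereas in the WT-labelled library it had 258 against 289 CPM (−0.16, −0.52 to 0.18). The levels of *Batf* were 222 against 240 CPM (−0.11, −0.27 to 0.04). Again 0 factors were 1.5-fold higher and 0 lower, beside 6.56% and 8.26% of genes. Cells with and without such a UMI also differ in depth, with medians of 1732 against 1484 UMIs for *Il10*, 2119 against 1480 for *Il1rl1* and 1726 against 1422 for *Klrg1*. For the naive-type genes of the next paragraph the medians are 3023 against 1488 UMIs. The part of depth was not tested.

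The 140 Foxp3+ T cells with naive-type genes in the dKO-labelled library differed from the 3057 without in *Id3*, *Maf*, *Id2* and *Bhlhe40* by at least 1.5-fold. *Id3* had 32.1 against 7.68 CPM (2.06, 1.11 to 2.94). *Maf* had 295 against 553 CPM (−0.91, −1.16 to −0.66), *Id2* 543 against 830 CPM (−0.61, −0.80 to −0.43) and *Bhlhe40* 599 against 913 CPM (−0.61, −0.79 to −0.44). The other 5 factors lay between, with *Irf4* at −0.54 (−1.37 to 0.18) and *Prdm1* at −0.45 (−1.02 to 0.08). In all, 1 factor was higher and 3 were lower by 1.5-fold, beside 11.5% and 22.2% of genes. The 75 such cells of the WT-labelled library had 65.8 against 165 CPM of *Batf* (−1.33, −2.10 to −0.63), whereas in the dKO-labelled library *Batf* had 199 against 234 CPM (−0.24, −0.56 to 0.07). Naive-type Foxp3+ T cells made up 75 of 430 and 140 of 3197 cells. Among those without naive-type genes the ratios between libraries were 0.50 (0.25 to 0.77) for *Batf*, 1.08 (0.91 to 1.24) for *Id2* and −1.62 (−2.43 to −0.76) for *Id3*. The ratio of *Batf* is then under the 1.5-fold limit of 0.58.

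**Figure D4:**
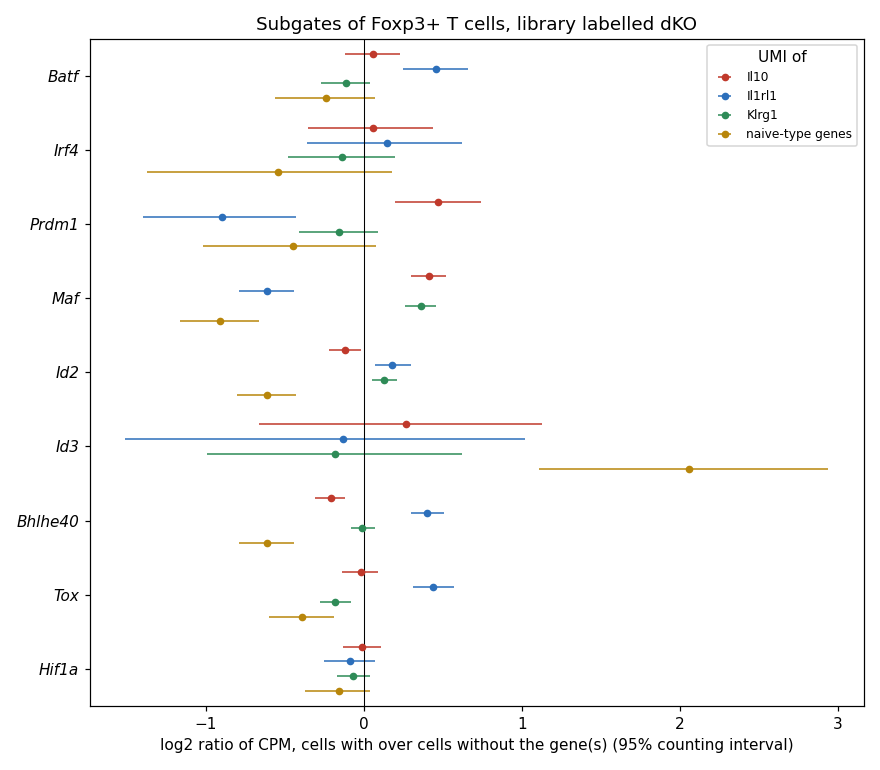
Log2 ratio of CPM in Foxp3+ T cells of the dKO-labelled library (x axis), cells with over cells without a UMI of *Il10*, *Il1rl1* or *Klrg1*, or with over without at least 2 naive-type genes; bars are exact 95% intervals for counting error. *Maf* and *Prdm1* lay above 0 for *Il10* and below 0 for *Il1rl1*, and *Id3* reached 2.06 for naive-type genes.

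In the dKO-labelled library, Foxp3+ cycling over other Foxp3+ T cells had 0 factors at least 1.5-fold higher and 3 lower, beside 14.9% and 28.6% of 11689 genes. *Id2* had 346 against 808 CPM (−1.22, −1.37 to −1.08), *Maf* 242 against 533 CPM (−1.14, −1.32 to −0.97) and *Bhlhe40* 431 against 889 CPM (−1.04, −1.18 to −0.91). *Batf* was the same in both, with 230 and 231 CPM (−0.01, −0.20 to 0.18). Cycling cells were deeper, with a median of 5293 against 1533 UMIs, and the part of this depth was not tested. In the WT-labelled library the 73 Foxp3+ cycling T cells differed less in *Id2*, *Maf* and *Bhlhe40*. They had 276 against 349 CPM of *Id2*, 210 against 278 CPM of *Maf* and 443 against 579 CPM of *Bhlhe40*. *Batf* had 162 against 139 CPM there, with intervals that overlap.

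Clone size was read from the receptor libraries, in which 210 and 1207 Foxp3+ T cells had a receptor. In the dKO-labelled library, *Maf* was 433 CPM (398 to 471) in the 557 Foxp3+ T cells of clones of 1 cell, 515 CPM (460 to 575) in the 275 cells of clones of 2 to 9 cells and 737 CPM (676 to 801) in the 375 cells of clones of 10 or more. The last over the first gave a log2 ratio of 0.77 (0.59 to 0.94). *Id3* had 4.07 against 11.8 CPM in the same comparison, with an interval that spans 0 (−1.54, −3.97 to 0.28). Without the largest clone, which held 149 of those cells, *Maf* was 766 CPM (689 to 850). *Batf* had 235 CPM (209 to 263), 264 CPM (225 to 308) and 199 CPM (168 to 234) over the same clone sizes, and 159 CPM (125 to 199) without the largest clone, whose own cells had 269 CPM (211 to 338). *Id2* was 720, 821 and 790 CPM. In clones of 1 cell, the ratios between libraries were 0.75 (0.37 to 1.15) for *Batf*, 0.73 (0.45 to 1.02) for *Maf*, 1.06 (0.82 to 1.30) for *Id2* and −1.85 (−2.91 to −0.82) for *Id3*. A clone seen as 1 cell may have members whose receptor was not recovered. Only 10 Foxp3+ T cells of the WT-labelled library belonged to clones of 10 or more, too few to compare.

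The libraries also differed in which cells the transcripts came from. Other T cells held 51.7% of the *Batf* UMIs of the WT-labelled library and 20.9% of those of the dKO-labelled library, and Foxp3+ T cells held 6.96% and 24.0%. For *Id2* the Foxp3+ T cells held 6.19% and 32.3%, and for *Id3* 2.25% and 3.56%. Sums over all cells mix composition with level. *Bhlhe40* over all cells had 610 and 658 CPM (log2 ratio 0.11, 0.08 to 0.14) against 0.62 in Foxp3+ T cells.

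Lists of genes that work with these factors were counted in the same way between libraries in Foxp3+ T cells. All genes give 16.4% higher and 15.3% lower in this comparison. Of 10 stemness and quiescence factors, which keep T cells resting, 0 were at least 1.5-fold higher and 8 lower in the dKO-labelled library, with a median log2 ratio of −1.08. *Tcf7* had 154 and 38.7 CPM (−2.0, −2.29 to −1.70), *Lef1* 188 and 58.0 CPM (−1.70, −1.95 to −1.44) and *Foxp1* 351 and 122 CPM (−1.53, −1.70 to −1.34). *Lef1* is also one of the naive-type gate genes. In other T cells 1 of the 10 was lower, *Lef1* at −0.62, and 0 were higher, beside 13.3% and 8.98% of all genes, and the median was −0.15. Of 18 products linked to *Batf*, *Irf4*, *Prdm1* and *Maf*, 10 were higher and 1 lower, with a median of 0.81. *Lag3* had 16.5 and 158 CPM (3.26, 2.60 to 4.02) and *Il10* 49.4 and 178 CPM (1.85, 1.45 to 2.27) in Foxp3+ T cells. *Tigit* had 273 and 939 CPM there (1.78, 1.61 to 1.95). *Il1rl1* was the lower one, with 160 and 84.7 CPM (−0.92, −1.17 to −0.66). In other T cells 13 of the 18 were higher and 0 lower, with a median of 1.25. Several of these products, *Tigit* among them, are also Treg-associated gate genes.

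Partners of the factors at DNA and other related lists are set against the same 16.4% and 15.3% of all genes. Of 12 AP-1 and IRF genes, 11 had at least 10 UMIs, and 2 were higher and 2 lower in Foxp3+ T cells. *Irf1* had 189 and 350 CPM (0.89, 0.68 to 1.10), *Irf8* 40.2 and 60.8 CPM (0.60, 0.14 to 1.08), and *Fosb* 85.0 and 47.8 CPM (−0.83, −1.17 to −0.48). The other lower gene was *Batf3*, a paralog of *Batf* named after its values were seen, with 12 and 9 UMIs, a log2 ratio of CPM from few counts (−2.89, −4.31 to −1.52). *Junb*, a partner of Batf, had 4231 and 2979 CPM (−0.51, −0.55 to −0.46), under the limit. Among E proteins, the targets of Id2 and Id3, *Tcf12* had 154 and 103 CPM (−0.58, −0.82 to −0.32), *Tcf4* 20.1 and 24.4 CPM (0.28, −0.37 to 1.0) and *Tcf3* 42.0 and 38.1 CPM (−0.14, −0.60 to 0.35). Of 13 other lineage factors 1 was higher and 3 lower, with *Rora* at 733 and 435 CPM (−0.75, −0.87 to −0.64). *Tox2*, the paralog of *Tox*, had 20.1 and 51.1 CPM (1.35, 0.72 to 2.04). Of 13 target and regulator genes of *Hif1a* found in the tables, 3 were higher and 2 lower, among them *Egln3*, a hypoxia-induced hydroxylase, with 27.4 and 49.9 CPM (0.86, 0.32 to 1.46).

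Over the 22 class and library profiles of at least 50 cells, *Batf* ran most nearly with *Hif1a* among the 9 factors (Pearson r 0.85 of log2(CPM + 1)) and opposite to *Id3* (−0.82). *Maf* and *Tox* had r 0.91, *Maf* and *Id2* 0.85, and *Batf* and *Irf4* 0.39. Among 7461 other genes the profile nearest to *Maf* was *Ttc39c* (0.96), then *Traf1* and *Osbpl3* (both 0.95), and those nearest to *Tox* were *Traf1*, *Syt11* and 2310001H17Rik (each 0.94). *Traf1* was also near *Hif1a* (0.94), after *Camk2n1* and before *Pdcd1* (both 0.94). *Batf* lay nearest to *Leprotl1* (0.91), *Tap2* (0.90) and *Vcpkmt* (0.87), and *Irf4* to *Trp53i13* (0.93), *Rmc1* (0.93) and *Cpped1* (0.92). *Prdm1* lay nearest to *Mxi1* (0.91), *Rab11fip1* (0.91) and *Ehd1* (0.90), and *Id2* to *Aplp2* (0.93), *Bcl2a1b* and *Adora2a* (both 0.92). *Id3* lay nearest to *Lamp1* (0.90), *Nfe2l2* (0.89) and *Tusc1* (0.87), and *Bhlhe40* to *Nfkbia*, AU020206 (both 0.89) and *Ndfip1* (0.88). The profiles share 2 libraries and differ in depth, so these values describe likeness only.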

How the data were processed

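For each RNA library the authors deposited a matrix of raw UMI counts, genes by called cells, made with Cell Ranger (7.0.1 in the file header) on mm10 from a 5′ kit, and for each receptor library a table of contigs with their UMI counts. Whether intronic reads were counted is not given in the sources used here. The 9 factors and the gene lists were chosen with earlier results of these data known. Cells with over 200 genes and mitochondrial counts below 5% were kept. UMIs were summed per class and library and divided by all UMIs of the class (CPM). Intervals are exact: Poisson for CPM, conditional binomial for ratios, Clopper-Pearson for shares (95%), and a normal approximation on log counts for differences of ratios. The floor for a count of 0 is 3 UMIs, a one-sided 95% limit. Genes were compared where both groups together held at least 10 UMIs. No test between genotypes was run, since each has 1 library. Genes named were the 9 factors, *Nr4a1* to *Nr4a3*, up to 3 genes at each end of every list with at least 20 CPM, and the 3 nearest profiles, of genes with at least 20 CPM in 3 profiles and outside the markers. Classes were gated in the order non-T cells, innate cells without receptor, cycling, Foxp3+, invariant NKT, type 17, type 1, naive-type and Treg-associated cells. Cells with markers of T and other cells (378 and 939) and unclassed cells (859 and 831) were left out. Scrublet's automatic threshold marked 0 cells in either library, so the cells of highest score, at 0.8% per 1000 cells, and those with at least 2 TRB chains (1001 and 2489 in all) were removed as an alternative only. Alternatives also covered scaling (TMM of edgeR 4.0.16), denominators, the cell filter, the *Foxp3* gate, clonotypes and cell means. The ratios and intervals were tested on simulated data. Software was Scanpy 1.11.5, SciPy 1.17.1, pandas 2.3.3, NumPy 2.4.6 and matplotlib 3.10.9 under Python 3.11.15, and R 4.3.3. Gene positions come from GENCODE M21 and upstream windows from RefSeq on GRCm38.p6.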

Additional observations from a re-analysis of the deposited data

How the results depend on the processing

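The 36 log2 ratios between libraries (Foxp3+ and other T cells) and between classes (Foxp3+ over other T cells in each library) were recomputed under other settings, 11 in all, each used where it could change that ratio. Leaving out a library was not possible with 1 per genotype. No paired analysis was possible because each genotype has 1 library, so the groups share only 1 replicate number. Without the filter on cells, and without barcodes shared by both libraries, every ratio stayed within its counting interval. All values are log2 ratios, and the cause of each shift was not tested.

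With the mean of each cell's CPM, the ratio between libraries was 0.47 for *Batf* and 0.83 for *Bhlhe40* in Foxp3+ T cells, and 0.94 for *Maf* and 0.75 for *Tox* in other T cells, and Foxp3+ over other T cells (WT) gave −0.54 for *Bhlhe40* and 1.72 for *Tox*. Taking 1 cell per clonotype keeps only cells with a recovered receptor, which 210 and 1207 Foxp3+ T cells had. Clone size and receptor recovery were not told apart in this setting. With 1 cell per clonotype (187 and 723 Foxp3+ T cells, 1821 and 1138 other T cells), Foxp3+ T cells gave 0.63 for *Maf* and 0.03 for *Hif1a*. Other T cells then gave 1.15 for *Batf*, 0.68 for *Irf4*, 0.71 for *Maf*, 0.45 for *Id2*, 0.69 for *Bhlhe40*, 0.11 for *Tox* and 0.89 for *Hif1a*. Between classes the same setting gave, in the WT-labelled library, 0.75 for *Irf4*, 1.02 for *Maf*, 0.50 for *Id2*, 1.38 for *Tox*, 0.80 for *Hif1a* and the opposite sign, 0.07, for *Bhlhe40*. In the dKO-labelled library it gave 1.42 for *Prdm1*, 0.93 for *Maf*, 1.12 for *Tox* and the opposite sign, −0.06, for *Hif1a*.

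With marked doublets removed, the values were 1.37 for *Id2* (Foxp3+) and 0.27 for *Bhlhe40* (other T cells) between libraries, and 0.93 for *Maf*, 1.29 for *Id2* and 0.95 for *Tox* between classes (dKO). With at least 2 *Foxp3* UMIs, Foxp3+ T cells gave −2.38 for *Id3* and 0.08 for *Tox*, and between classes (WT) *Tox* gave 1.40 and *Hif1a* 0.68. With the Treg-associated cells counted as Foxp3+, *Bhlhe40* gave 0.35 and *Tox* 0.03 between libraries, and *Bhlhe40* changed sign between classes to 0.06 (WT) and gave 0.08 (dKO). With them counted as other T cells, the ratios between libraries there were 1.36 for *Prdm1*, 1.25 for *Maf*, 0.96 for *Id2*, −0.78 for *Id3*, 0.38 for *Bhlhe40* and 0.92 for *Tox*, and between classes *Tox* gave 1.37 (WT), and in the dKO-labelled library 0.39 for *Prdm1*, 0.34 for *Maf*, 0.53 for *Id2*, −1.23 for *Id3*, −0.12 for *Bhlhe40* and 0.33 for *Tox*. This choice and the next were made after seeing the data, as was the removal of shared barcodes.

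With other T cells limited to those without a Treg-associated gene, their ratios between libraries were 0.85 for *Batf*, 0.27 for *Prdm1*, 0.30 for *Maf*, 0.11 for *Id2* and, of opposite sign, −0.06 for *Tox*. Between classes (WT) this gave 0.87 for *Batf*, 0.75 for *Irf4*, 1.46 for *Maf*, 1.97 for *Tox*, 0.98 for *Hif1a* and, of opposite sign, 0.19 for *Bhlhe40*. Between classes (dKO) it gave 0.75 for *Batf*, 0.63 for *Irf4*, 1.61 for *Prdm1*, 2.10 for *Maf*, 1.40 for *Id2*, 0.48 for *Bhlhe40*, 1.91 for *Tox* and 0.61 for *Hif1a*.

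Between classes (dKO), a denominator without ribosomal, mitochondrial and receptor genes gave 0.22 for *Batf*, 0.70 for *Maf*, 1.01 for *Id2*, −0.14 for *Bhlhe40*, 0.69 for *Tox* and, of opposite sign, −0.02 for *Hif1a*. TMM scaling gave 0.73 for *Maf*, 1.04 for *Id2*, −0.11 for *Bhlhe40*, 0.72 for *Tox* and 0.01 for *Hif1a* there. Genes past 1.5-fold in either direction numbered 3701 in Foxp3+ and 2986 in other T cells, against 1805 and 1435 past 2-fold, 1885 and 1424 with at least 50 UMIs, and 4658 in other T cells with at least 1 UMI in each library.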

Other observations

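Some factors differed in classes that the comparisons above leave aside. In the 50 and 52 cells with an invariant NKT receptor, *Id2* had 516 and 642 CPM, a log2 ratio of 0.31 (−0.18 to 0.81). In cycling T cells without *Foxp3*, *Batf* had 104 and 236 CPM (1.18, 0.94 to 1.43) and *Tox* 174 and 299 CPM (0.78, 0.58 to 0.99). Macrophages had 15.2 and 51.7 CPM of *Batf*, with a wide interval (1.76, 0.42 to 3.46).

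In other T cells, the lineage factor *Eomes* had 6.54 and 36.9 CPM (2.50, 2.13 to 2.88) and *Tbx21*, the factor of type 1 cells, had 132 and 79.3 CPM (−0.73, −0.87 to −0.59). In the same cells *Il10* had 4.28 and 45.9 CPM (3.42, 3.0 to 3.87) and *Lag3* had 5.41 and 60.4 CPM (3.48, 3.11 to 3.88), genes that Foxp3+ T cells also carried at higher level in the dKO-labelled library. *Egln3*, from the *Hif1a* list, had 11.1 and 28.0 CPM (1.33, 1.01 to 1.66). *Pdk1*, from the same list, was lower, with 28.7 and 15.0 CPM (−0.94, −1.27 to −0.61). In these other T cells the 7 Treg-associated genes summed to 753 and 1991 CPM. The genes of this paragraph were not compared in those without a Treg-associated gene.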
